A study of Mus musculus with 11 samples.

Results

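The comparison covered the last step of red cell maturation that the series samples: cells of the sorted fraction R5 against cells of the sorted fraction R3. Its members were chosen by the sample titles, which gave 2 arrays of R5 and 3 arrays of R3, 5 of the 11 arrays of the series. All 45037 probe sets other than controls were compared on them. The cells came from livers of C57/Bl6 mouse embryos at stage E14.5, were stained for the erythroid antigen Ter119 and for the transferrin receptor CD71, and were separated by flow cytometry with no treatment or genetic change in either group. A single array of the fraction between them, R4, is shown beside the others but was not tested. Total RNA of a whole fraction was measured, and the labels do not say whether the arrays of a fraction stand for separate litters or sorting runs. The p-values therefore cover the spread within fractions of the arrays of the series alone, R1 and R2 included, and that spread may be technical.

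In the sorting scheme that the labels cite, R3 cells carry much Ter119 and much CD71, R4 cells have less CD71, and R5 cells keep Ter119 but have lost most CD71. R3 holds erythroblasts that still divide and fill with hemoglobin, and R5 the smallest erythroblasts and young reticulocytes. Over this interval red cell precursors are known to make their last divisions, condense and expel the nucleus, and clear organelles by autophagy and by tagging proteins with ubiquitin for the proteasome. In the fetal liver they mature on macrophages, beside hepatocytes and other blood cells. In bulk samples of this kind, fewer cells of a type and less RNA per cell cannot be told apart.

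Signals were the authors' linear intensities, taken here to log2, so that a difference of 1 is a doubling. The median log2 signal was 6.45, 6.18 and 6.26 on the R3 arrays, 6.73 on the R4 array and 6.91 and 6.75 on the R5 arrays, and the median gene was higher in R5 by 0.33. Differences of gene groups are therefore also given relative to that median. The 100 brightest probe sets held 11.8% to 14.2% of the signal in R3 and 15.6% and 17.0% in R5. Across genes, which are not independent replicates, R3 arrays correlated with each other at 0.90 to 0.91, while the 2 R5 arrays correlated at 0.86, no more closely than R5 with R3 arrays (0.86 to 0.89). For the pyruvate carboxylase control, the excess of 3′ over 5′ signal in log2, which grows as RNA is shorter, was 2.45 to 3.29 in R3 and 4.62 and 2.27 in R5. The same excess for Gapdh was positive in R5 alone, at 0.23 and 0.20, while R3 had -0.18, -0.17 and -0.04 and every array of R1, R2 and R4 was negative as well. For pyruvate carboxylase the R5 arrays lay on both sides of the R3 arrays, and the other 2 controls of this kind did not set R5 apart. The excess for beta-actin was 0.24, 0.33 and 0.83 in R3 and 0.43 and 0.44 in R5. For the transferrin receptor it was 1.98, 1.88 and 2.58 in R3 and 2.89 and 2.04 in R5. The part of these control signals in the results was not tested. Markers of the labelled erythroid cells were high: Slc4a1, the anion exchanger band 3, and Alas2, which starts heme synthesis in red cells, lay between 15.35 and 16.84 on all R3 and R5 arrays.

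The clearest difference was in Pklr, the gene of the pyruvate kinase of red cells and liver, which makes ATP in the last step of glycolysis. A Pklr probe set had log2 signals of 10.39, 10.62 and 10.48 in R3, then 10.22 in R4, and 6.47 and 6.53 in R5. All R3 arrays and the R4 array were thus far above both R5 arrays. Both R5 signals lay below their array's median (6.91 and 6.75), which serves here as a mark of a dim probe set, since no detection calls were used, and so the size of the fall is given as a bound. With the R5 arrays set at their medians it fell at least 12.7-fold from R3 to R5 (SE of the fitted difference 0.37 in log2, 2 against 3 arrays), with an adjusted p of 0.00526 (limma, Benjamini-Hochberg). This was the 1 call among 45037 probe sets, a share of 0.00222%, while 6002 probe sets (13.3%) had an unadjusted p under 0.05. The other 2 Pklr probe sets, which stayed above the median in R5, differed by -2.24 ± 0.40 and -2.19 ± 0.37, a 4.71-fold and a 4.55-fold lower mean, each with an adjusted p of 0.0853, so the size depended on the probe set. Over the settings run, the adjusted p of the called probe set lay between 0.00043 and 0.128, and leaving out any 1 R3 array, leaving out replicate 2 of R5, fitting R3 and R5 arrays alone or dropping the intensity trend ended the call.

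Pklr has an upstream start used in erythroid cells and a downstream start used in liver. RefSeq (GRCm38.p6) gives 2 promoter windows of the gene, 250 bases before to 50 after each start, and both are printed because Pklr carried the single call. The first is at chr3:89135892-89136191 and the second at chr3:89136373-89136672, both on the plus strand. The binding word of GATA factors, searched as AGATAA or TGATAA on both strands, is in capitals. It occurs in the first window and not in the second, and in 18.6% of all 32851 promoter windows.
Pklr upstream window: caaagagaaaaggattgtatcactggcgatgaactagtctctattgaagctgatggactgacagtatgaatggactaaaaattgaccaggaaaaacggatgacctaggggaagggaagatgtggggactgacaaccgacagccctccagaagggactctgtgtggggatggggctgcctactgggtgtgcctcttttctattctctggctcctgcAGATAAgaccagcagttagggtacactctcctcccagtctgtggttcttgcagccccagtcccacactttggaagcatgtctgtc
Pklr downstream window: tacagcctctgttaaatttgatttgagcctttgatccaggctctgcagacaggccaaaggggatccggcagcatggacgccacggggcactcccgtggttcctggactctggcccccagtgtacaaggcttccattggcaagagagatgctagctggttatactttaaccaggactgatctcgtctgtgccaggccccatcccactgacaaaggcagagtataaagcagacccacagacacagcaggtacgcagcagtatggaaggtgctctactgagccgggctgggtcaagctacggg

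For groups of genes, each gene was represented by its probe set with the highest mean signal, which gave 18193 genes. Of these, 0 were called in limma at an adjusted p of 0.05, and 2852 (15.7%) had an unadjusted p under 0.05, 1691 higher and 1161 lower in R5. Since no gene was called, groups are described by how many members were separated: the R3 and R5 arrays did not overlap and the means differed by at least 2-fold. This description was chosen after the calls were seen, and it is not a test. Of all genes, 16.5% were separated higher in R5 and 4.75% separated lower, and a group's share is to be read beside these. These shares moved with single arrays: they were 24.9% and 14.7% without replicate 1 of R5, 29.3% and 8.1% without replicate 2 of R5, and 18.8% and 7.79% without replicate 2 of R3. With each array centred on its median they were 6.53% and 14.9%. Among genes separated higher, 52.1% lay below the array median on all R3 arrays, and among those separated lower 33.5% did so on all R5 arrays. A negative difference was found for 37.7% of all genes. Genes are named by the size of their difference among separated members, or to complete the description of a group, in both cases after their values were seen. Of the separated genes named in the groups, Cdt1, Mcm3, Mcm6, Pola1, Tyms, Rbl1, Ube2k, Map1lc3b, Eif3m, Gfm1, Suz12 and Nfia each had 1 probe set whose difference ran the other way.

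Genes of DNA replication were lower in R5 than in R3. Of 42 genes listed, 41 were measured, all 41 had a negative difference, and 35 were separated lower against 4.75% of all genes. The median difference of the 41 genes was -1.49, or -1.82 relative to the median gene, and single genes lay between -2.33 and -0.53. Their median log2 signal was 12.12, 11.94 and 12.22 on the R3 arrays, 11.52 on the R4 array and 10.95 and 9.74 on the R5 arrays. It was 11.72 and 11.25 in R1, the least mature fraction, and 12.12, 11.95 and 12.18 in R2. The 2 R5 arrays therefore lay below every other array of the series, and they differed from each other by more than the R3 arrays did. No member was called over all genes, while 37 of 41 had an unadjusted p under 0.05, against 6.38% of all genes in that direction.

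**Figure D1:**
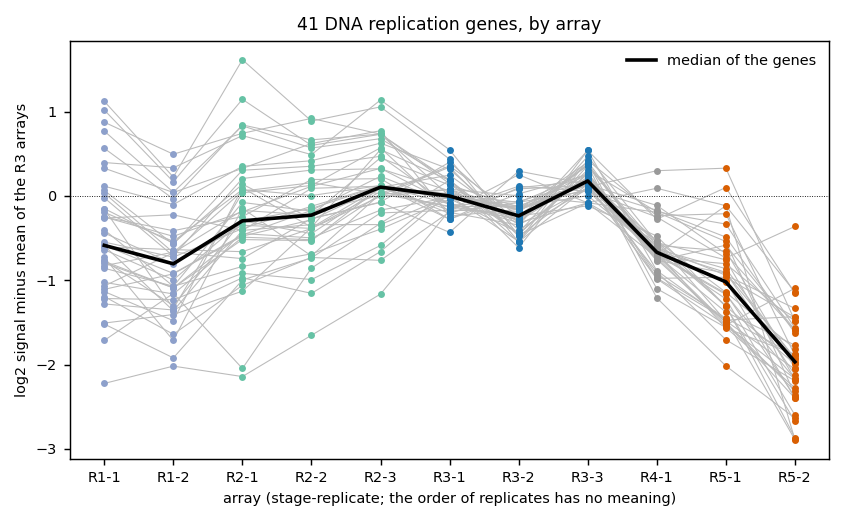
Log2 signal of 41 DNA replication genes on each of the 11 arrays, relative to the mean of the R3 arrays (vertical axis), with a grey line and points for each gene and a black line at their median. The median line runs level over R2 and R3, drops on the R4 array and is lowest on the 2 R5 arrays, with replicate 2 of R5 below replicate 1, while single genes such as Rrm2 take other courses.

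Members that act at successive steps of replication were among them. Of the factors that mark origins, Cdc6, which loads the replicative helicase, had log2 signals of 12.64, 12.62 and 13.16 in R3, then 11.60 in R4, and 10.79 and 10.17 in R5, a difference of -2.33 ± 0.38 (limma adjusted p = 0.0853). The origin recognition subunits Orc6 and Orc2 differed by -1.95 ± 0.34 and -1.91 ± 0.38. Geminin (Gmnn), which blocks a further round of loading, and Cdt1, its target, differed by -1.48 and -1.47. All of these were lower on both R5 arrays than on any R3 array.

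All of the helicase subunits Mcm2, Mcm3, Mcm4, Mcm5, Mcm6 and Mcm7 were separated lower. Mcm3 had signals of 12.50, 12.58 and 13.14 in R3 and 11.18 and 10.46 in R5, a difference of -1.92 ± 0.33 (limma adjusted p = 0.0853), and Mcm2 showed the smallest difference of the 6, -1.20 ± 0.31. Gins1, of the complex that joins the helicase, differed by -2.08 ± 0.44, while Gins2, of the same complex, differed by -0.63 ± 0.37 and was not separated. The polymerase genes behaved unevenly too: primase Prim1 differed by -1.77 ± 0.29 and the polymerase alpha subunit Pola1 by -1.85 ± 0.35, but the polymerase delta genes Pold1 and Pold2 differed by -0.53 ± 0.44 and -0.58 ± 0.51 and overlapped between stages.

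Of the genes that supply nucleotides, Rrm1, the large subunit of ribonucleotide reductase, had signals of 13.49, 13.78 and 13.82 in R3, then 12.80 in R4, and 11.99 and 11.51 in R5. It differed by -1.95 ± 0.30, a 3.86-fold lower mean (limma adjusted p = 0.0853). Its partner Rrm2 had 15.21, 15.50 and 15.44 in R3 and 14.65 and 15.02 in R5, a difference of only -0.55 ± 0.35, which did not meet the 2-fold size. Tyms, which makes thymidylate, differed by -2.18 ± 0.55 and Tk1, thymidine kinase, by -1.65 ± 0.39. Pcna, the sliding clamp, differed by -1.14 ± 0.35 from an R3 mean of 15.74. The members that were not separated were Rfc2, Rfc5, Gins2, Pold2, Rrm2 and Pold1.

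Promoters of replication genes are known to hold sites of E2F factors, which switch on genes of S phase, and those of Cdc6, Mcm3 and Rrm1 are printed as examples whose signals were lower in R5. Windows span 250 bases before to 50 after the start in RefSeq (GRCm38.p6). Cdc6 is at chr11:98907901-98908200 on the plus strand, Mcm3 at chr1:20820263-20820562 on the minus strand and Rrm1 at chr7:102441445-102441744 on the plus strand. The 4 words TTTCCCGC, TTTCGCGC, TTTGCCGC and TTTGGCGC were searched on both strands, and matches are in capitals. Mcm3 has 2 matches, Cdc6 has 1 and Rrm1 has 0. Of the 34 replication genes with a window, 13 (38.2%) hold a word in 1 of their windows, against 704 of 27025 genes (2.61%). A match describes letters and is not a shown site.
Cdc6: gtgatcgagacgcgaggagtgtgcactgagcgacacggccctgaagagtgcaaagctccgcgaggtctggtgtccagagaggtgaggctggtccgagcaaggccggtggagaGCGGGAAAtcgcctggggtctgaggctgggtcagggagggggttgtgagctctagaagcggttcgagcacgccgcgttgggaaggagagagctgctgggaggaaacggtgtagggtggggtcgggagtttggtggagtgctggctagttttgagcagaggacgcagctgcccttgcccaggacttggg
Mcm3: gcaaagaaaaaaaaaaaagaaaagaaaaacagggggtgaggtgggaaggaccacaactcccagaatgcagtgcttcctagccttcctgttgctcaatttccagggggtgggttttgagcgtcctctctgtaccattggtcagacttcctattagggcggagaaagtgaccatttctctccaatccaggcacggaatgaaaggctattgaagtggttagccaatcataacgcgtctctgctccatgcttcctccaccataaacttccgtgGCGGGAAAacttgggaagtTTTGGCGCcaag
Rrm1: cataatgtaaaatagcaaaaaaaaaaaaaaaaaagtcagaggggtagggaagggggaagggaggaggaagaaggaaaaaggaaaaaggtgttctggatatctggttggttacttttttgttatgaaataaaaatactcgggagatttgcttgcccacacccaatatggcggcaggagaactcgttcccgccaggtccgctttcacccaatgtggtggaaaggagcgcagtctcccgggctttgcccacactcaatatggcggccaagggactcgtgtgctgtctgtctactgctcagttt

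The median difference of the replication genes stayed between -2.03 and -1.37 under the 3 other scalings tried, but the number of calls did not hold. With each array centred on its median, 40 of 41 were separated lower, against 14.9% of all genes, and 25 were called lower, against 1.56%. With quantile normalization 30 were separated lower, against 7.15%, and 1, Rrm1, was called lower, with an adjusted p of 0.043, against 0.0989% of all genes. With 50 added to each signal 35 were separated, against 3.02%, and 9 were called lower, against 0.302%. Replicate 1 of R5 stood nearer to R3 than replicate 2: the median of the differences between arrays of the same number was -1.07 for number 1 and -1.74 for number 2. Without replicate 2 of R5, 22 members were separated, against 8.1% of all genes, and without replicate 1, 40 were separated, against 14.7%, and 25 were called lower, against 1.23% of all genes.

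Mitosis genes were lower by less. Of 33 measured, 30 had a negative difference, the median was -0.62, and 5 were separated lower: Ndc80 (-1.48 ± 0.32) and Mad2l1 of the kinetochore and its checkpoint, the kinases Ttk and Aurkb, and Kif23 (-1.26 ± 0.28), a motor of cytokinesis. With centring 22 were separated lower, against 14.9% of all genes. Mki67, which encodes the proliferation antigen Ki-67, went against the list. It had signals of 15.35, 15.61 and 15.47 in R3 and 15.73 and 16.23 in R5, a difference of 0.50 ± 0.32 (limma adjusted p = 0.513) that became -0.035 with centring. Ube2c, of the ubiquitin system that ends mitosis, and Nusap1, of the spindle, also had positive differences, 0.69 ± 0.35 and 0.46 ± 0.47. On the deposited scale Mki67 and Ube2c were thus higher on both R5 arrays than on any R3 array, while the replication genes were lower. Without replicate 2 of R5, 13 mitosis genes were separated lower, against 8.1% of all genes.

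Among 24 cell cycle brakes 6 were separated higher, against 16.5% of all genes, and 2 lower. Btg1, an antiproliferative gene, had 11.06, 11.96 and 11.80 in R3 and 12.41 and 13.52 in R5, a difference of 1.35 ± 0.53. Ccng2, an atypical cyclin linked to arrest, differed by 1.31 ± 0.72, Gadd45a by 1.29 ± 0.48 and Mxd4, which opposes Myc, by 1.56 ± 0.50. Rbl1, the pocket protein p107, differed by -1.73 ± 0.36. The other 3 separated members were Cdkn1c, with 1.19 ± 0.48, and Cdkn2b and Cdkn2a, which were dim on all R3 and R5 arrays. Without replicate 2 of R3, 10 were separated higher, against 18.8% of all genes, and without replicate 2 of R5, 4 were separated higher and 5 lower, against 29.3% and 8.1%. With centring 0 of the 24 were separated higher and the median of the list turned from 0.17 to -0.36. Myc differed by 0.25 ± 0.52 (limma adjusted p = 0.852), with opposite signs for the 2 numbered pairs, and by -0.29 with centring.

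**Figure D2:**
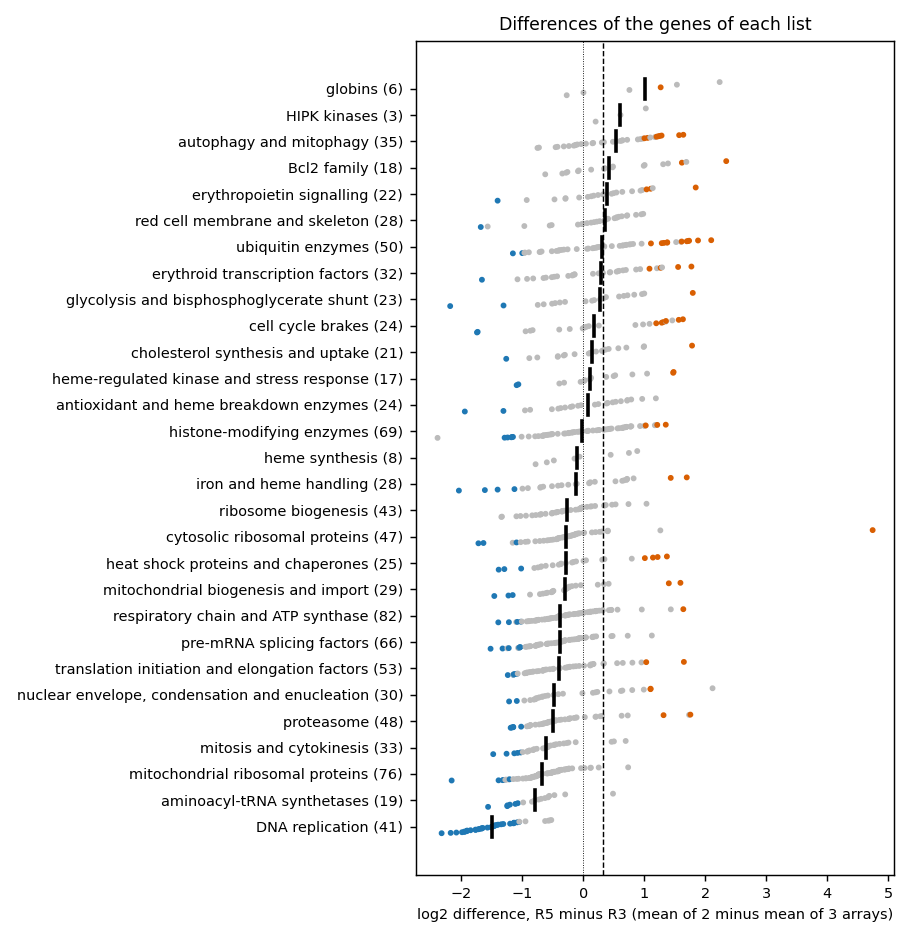
Log2 difference of R5 minus R3 for the genes of each list (points, with the number measured in brackets) and the median of the list (black bars). Orange points were separated higher, blue points separated lower and grey points neither. The dashed line is the median of all genes at 0.33, and the DNA replication list lies farthest to the left with a median of -1.49.

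Among genes of hemoglobin, heme and the red cell membrane few were separated, and their errors were often large. These errors pool the spread within all fractions, R1 and R2 included. Of 8 heme synthesis genes 0 were separated in either direction, with a median of -0.10. Alas2 had 15.35, 15.68 and 15.47 in R3 and 16.01 and 16.75 in R5, a difference of 0.88 ± 1.21, and Uros, an enzyme in the middle of the pathway, differed by -0.78 ± 0.41. For Alas2 the R3 and R5 arrays did not overlap, and the standard deviation (SD) was 0.17 in R3 and 0.52 in R5. It was 3.90 in R1 and 1.60 in R2. Probe sets shared by the adult alpha or beta globin genes, which cannot assign signal to 1 gene, had differences of 0.71 to 0.75. They were very bright, at 14.97 to 16.00 in R3 and 15.90 to 16.71 in R5. Whether signals this bright still follow the amount of RNA was not tested. Of the 6 globin-list genes with a probe set of their own, whose median difference was 1.01, Hbb-b2 was separated higher (1.27 ± 1.08). This list also holds the embryonic globins described next. Its probe sets for Hba-a1 and Hba-a2 were far dimmer than the shared ones, at 4.16 to 7.44 and 8.48 to 9.15 in R3.

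The embryonic globin genes varied with the number of the replicate. Hba-x, the embryonic alpha-like globin, had signals of 14.72, 9.53 and 12.88 in R3, then 15.86 in R4, and 16.26 and 12.97 in R5. The difference was 2.24 ± 1.35. The stages overlapped, and replicate 2 was the lowest of its stage in both. Hbb-y and Hbb-bh1, the embryonic beta-like globins, showed the same placing, with stage differences of 1.53 ± 0.90 and 0.76 ± 0.64. Neither was separated.

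Of 28 genes of iron and heme handling 2 were separated higher and 4 lower. These were 7.14% and 14.3% of the list, against 16.5% and 4.75% of all genes. Tmem14c, a mitochondrial protein needed for heme synthesis, had 14.74, 14.39 and 14.48 in R3, then 13.96 in R4, and 12.81 and 12.18 in R5, a difference of -2.04 ± 0.34 (limma adjusted p = 0.0853). Steap3, the reductase of transferrin-bound iron, differed by -1.62 ± 0.51, Tfr2, which senses iron-loaded transferrin, by -1.41 ± 0.31, and Slc25a38, a mitochondrial carrier for glycine, by -1.13 ± 0.39. Slc48a1, a heme transporter, differed by 1.70 ± 0.39 and the iron-sulfur scaffold gene Iscu by 1.43 ± 0.33. These 6 were the separated members of the list.

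Tfrc, which encodes the sorting marker CD71, was not separated between the stages. Its brightest probe set had signals of 15.24, 15.45 and 15.61 in R3, then 15.34 in R4, and 15.11 and 16.13 in R5. The R5 arrays lay on both sides of the R3 arrays. The difference was 0.19 ± 0.39 (limma adjusted p = 0.852), and it was -0.14 with quantile normalization and -0.35 with centring. The other 2 probe sets of the gene differed by -0.21 ± 0.75 and -0.54 ± 0.96.

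Of 28 membrane and skeleton genes 1 was separated: Slc14a1, the urea transporter, had 11.77, 11.69 and 11.84 in R3, then 11.11 in R4, and 10.02 and 10.14 in R5, a difference of -1.68 ± 0.34. Aqp1, the water channel, differed by -1.57 ± 0.54 and overlapped. Slc4a1 differed by 0.63 ± 1.10, and its R3 and R5 arrays did not overlap. Its SD was 0.09 in R3 and 0.43 in R5, but 2.75 in R1 and 2.13 in R2. Among 32 erythroid transcription factors, Gfi1b, a repressor that works with Gata1, was separated lower (-1.66 ± 0.41). Nfia, dim in R3, Fli1, Gata2 and Mafk were separated higher, 12.5% of the list against 16.5% of all genes. Gata2, which is also in the mast cell and progenitor lists, and Fli1 had higher means in R1, 10.44 and 11.38, than in R5, 9.79 and 9.70. Gata1, the main regulator of red cell genes, differed by -0.48 ± 0.36 and Klf1, a second one, by -0.18 ± 0.40 (limma adjusted p = 0.575 and 0.864). Foxo3, a factor of late erythroblasts, had 14.18, 14.42 and 14.11 in R3 and 14.88 and 15.46 in R5, a difference of 0.93 ± 0.32 (limma adjusted p = 0.269). Its arrays did not overlap, but the difference was under 2-fold.

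Genes of the ubiquitin machinery lay on both sides. Of 50 genes 11 were separated higher, 22.0% and thus near the 16.5% of all genes, and 2 lower, and the list's median was 0.30, against 0.33 for all genes. The conjugating enzyme gene Ube2b had 13.38, 13.80 and 13.13 in R3, then 14.27 in R4, and 14.76 and 15.55 in R5, a difference of 1.72 ± 0.34 (limma adjusted p = 0.0979). Ube2o, known to clear ribosomal proteins in reticulocytes, had 11.86, 13.23 and 12.19 in R3 and 13.56 and 15.06 in R5, a difference of 1.88 ± 0.55. Ube2r2 differed by 1.73 ± 0.35, Ube2h by 1.70 ± 0.47 and Ube2f by 1.61 ± 0.36, and Ube2e2, dim in R3, was at least 1.94-fold higher. Ube2k and Ube2t were the separated members that were lower, and Ube2k differed by -1.16 ± 0.30. With centring 3 were separated higher and 8 lower, against 6.53% and 14.9% of all genes, and without replicate 1 of R5, 18 were separated higher, against 24.9%.

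Most proteasome genes had a lower mean in R5. Of 48 proteasome genes 38 had a negative difference, against 37.7% of all genes, and the median was -0.51. The 5 separated lower included the ATPase subunits Psmc3 and Psmc4 (-1.15 ± 0.33 and -1.15 ± 0.31) and the catalytic-ring subunit Psmb2 (-1.19 ± 0.40). The 2 separated higher were Psmb9, the subunit of the immunoproteasome (1.76 ± 0.70), and the regulator Psme3 (1.32 ± 0.39). With centring 24 were separated lower, against 14.9% of all genes, without replicate 1 of R5, 17 were, against 14.7%, and without replicate 2 of R5, 3 were, against 8.1%.

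Of 35 autophagy and mitophagy genes 8 were separated higher, 22.9% and thus near the 16.5% of all genes, and 0 lower. Positive differences were found for 24 of the 35, and for 62.3% of all genes. Pink1, the kinase that marks damaged mitochondria, had 10.74, 10.93 and 10.46 in R3, then 11.48 in R4, and 12.16 and 12.54 in R5, a difference of 1.64 ± 0.31 (limma adjusted p = 0.0977). The 3 genes of the family that coats the autophagosome membrane that were separated higher were Gabarapl1 (1.28 ± 0.43), Map1lc3b (1.23 ± 0.33) and Gabarapl2 (1.20 ± 0.38). The initiating kinase Ulk1 differed by 1.05 ± 0.38, the protease Atg4a by 1.25 ± 0.48, Atg10 by 1.57 ± 0.55 and Tfeb, a factor of lysosome genes, by 1.00 ± 0.54. With centring 2 of the 35 were separated higher and 2 lower, against 6.53% and 14.9% of all genes. Without replicate 1 of R5, 15 were separated higher, against 24.9% of all genes, and without replicate 2, 5, against 29.3%. Bnip3l, the receptor for clearing red cell mitochondria, shares its probe sets with a second gene, and it was not counted.

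Among 30 genes of the nuclear envelope, condensation and enucleation, 2 were separated in each direction. Xpo7, a nuclear exporter abundant in late erythroblasts, had 14.89, 15.44 and 15.21 in R3, then 15.68 in R4, and 15.96 and 16.60 in R5, a difference of 1.10 ± 0.49 (limma adjusted p = 0.364), with all 8 of its probe sets positive. The probe sets of Lmnb2, a lamin gene, disagreed: the brighter was separated higher (1.10 ± 0.48) and the other differed by -2.69 ± 0.65. Lmnb1 differed by 0.23 ± 0.46, and by -0.31 with centring. The condensin genes Ncapd2 and Smc2, which fold chromosomes, differed by -1.22 ± 0.30 and -1.09 ± 0.38. Of 69 histone-modifying enzyme genes 3 were separated higher and 5 lower, among the latter Ezh2 (-1.17 ± 0.32) and Suz12 (-1.24 ± 0.33) of the Polycomb complex that methylates histone H3.

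Survival and signalling genes had few separated members on the full set of arrays. Bcl2l1, which encodes the survival factor Bcl-xL of late erythroblasts, had 11.93, 12.89 and 12.25 in R3, then 12.64 in R4, and 13.36 and 14.59 in R5. It differed by 1.62 ± 0.44, a 3.07-fold higher mean (limma adjusted p = 0.192), with all 4 of its probe sets positive. Bcl2, its relative, was dimmer, with 6.67, 5.99 and 6.38 in R3 and 9.29 and 8.09 in R5, a difference of 2.34 ± 0.58. These were the 2 of 18 Bcl2 family genes that were separated, and leaving out any 1 of the R3 or R5 arrays gave 4 to 7 separated higher, against 18.8% to 29.3% of all genes. In the erythropoietin signalling list of 22 genes the kinases Pim3 (1.84 ± 0.35) and Pim1 (1.10 ± 0.46) and the cytokine gene Osm (1.04 ± 0.45) were separated higher, and Tfr2, also in the iron list, lower. Of the 3 HIPK kinases 0 were separated, and Hipk1, Hipk2 and Hipk3 differed by 1.02 ± 0.38, 0.61 ± 0.40 and 0.20 ± 0.40, with the 3 probe sets of Hipk1 all positive.

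In glycolysis, Pklr and Bpgm lay on opposite sides. The probe set of Pklr with the highest mean signal had 12.51, 12.15 and 12.08 in R3 and 10.27 and 9.85 in R5. Bpgm, which makes the bisphosphoglycerate that loosens oxygen from hemoglobin, had 13.44, 14.23 and 13.84 in R3, then 14.40 in R4, and 14.91 and 16.35 in R5, a difference of 1.80 ± 0.54 (limma adjusted p = 0.224). Pfkl, a phosphofructokinase, differed by -1.31 ± 0.46. These were the 3 separated among 23 genes, whose median was 0.27 and, with centring, -0.26. Of 24 antioxidant and heme breakdown genes 0 were separated higher, and Blvra, a biliverdin reductase (-1.95 ± 0.38), and Gstm5 (-1.31 ± 0.38) were separated lower. In the cholesterol list of 21, Mvk was separated higher (1.78 ± 0.64) and Sqle lower (-1.27 ± 0.37).

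**Figure D3:**
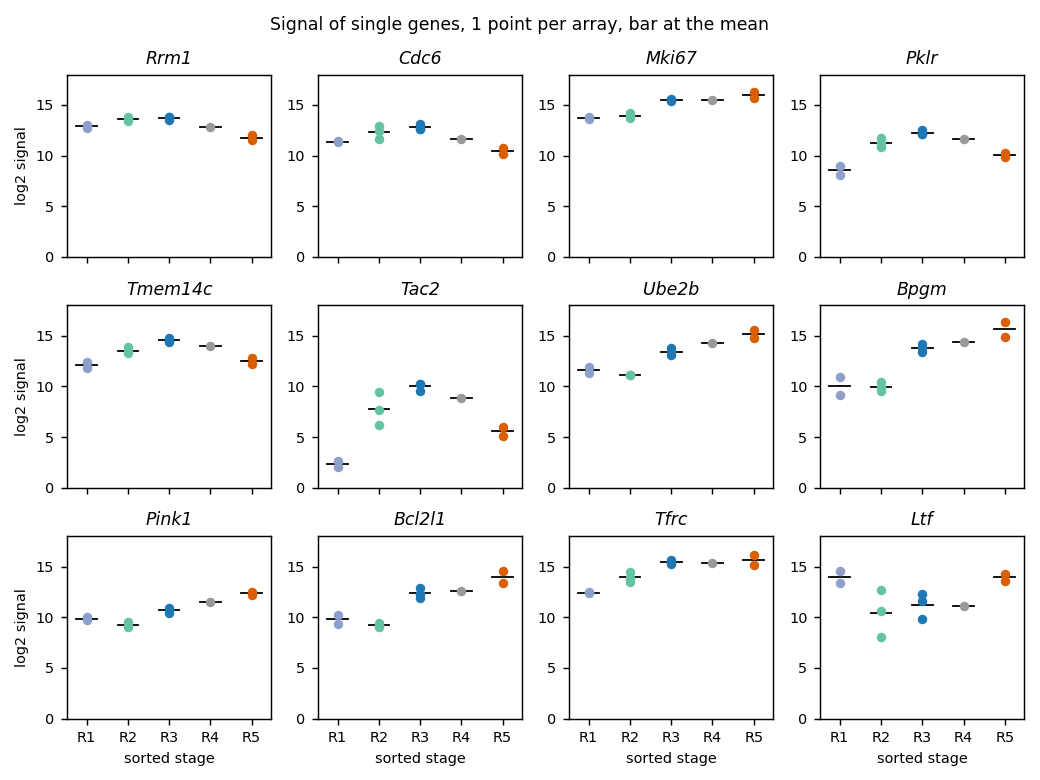
Log2 signal (vertical axis) of 12 genes in the 5 sorted stages, 1 point per array and a bar at the mean of the stage. Rrm1, Cdc6, Pklr, Tmem14c and Tac2 are lower on both R5 arrays than on the R3 arrays, Ube2b, Bpgm, Pink1, Bcl2l1 and Ltf are higher, and Tfrc overlaps. For Pklr the probe set with the highest mean is drawn.

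Genes of protein synthesis were uneven. Of 19 measured aminoacyl-tRNA synthetase genes, which charge tRNAs, 18 had a negative difference, against 37.7% of all genes, and 6 were separated lower, 31.6% against 4.75% of all genes. The alanine enzyme gene Aars had 12.37, 12.32 and 12.15 in R3, then 11.28 in R4, and 10.66 and 10.77 in R5, a difference of -1.56 ± 0.37. Yars, Tars, Hars, Cars and Sars were the others, between -1.25 and -1.08. Of 53 translation factor genes 5 were separated lower, among them Eif4enif1 (-1.24 ± 0.28) and Eif3m (-1.15 ± 0.35), and Eif5 (1.03 ± 0.38) and Eif4e3 (1.65 ± 0.74) were separated higher. For the ribosome biogenesis list of 43 genes 0 were separated, and the list followed the replicate number: its median signal was 10.31, 9.13 and 10.27 in R3 and 10.58 and 8.73 in R5, with replicate 2 the lowest of both stages. Of 47 cytosolic ribosomal protein genes 3 were separated lower, Rpl41, Rps27, dim in R5, and Rps19, and Rps16 was separated higher from a dim probe set (1.87, 2.74 and 0.90 in R3). These counts leaned on 1 array: without replicate 1 of R5, 14 synthetase, 22 translation factor, 23 ribosome biogenesis and 13 ribosomal protein genes were separated lower, against 14.7% of all genes, and without replicate 2 of R5, 4, 1, 0 and 1 were, against 8.1%.

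Of the mitochondrial lists, those of ribosomal proteins and of the respiratory chain had shares separated lower near that of all genes. Of 76 mitochondrial ribosomal protein genes 71 had a negative difference, against 37.7% of all genes, the median was -0.68 and 5 were separated lower, 6.58% against 4.75%, with Mrpl18 at -2.16 ± 0.51. Of 82 respiratory chain and ATP synthase genes 59 were negative, with a median of -0.38, and 4 (4.88%) were separated lower, all of them complex I genes, Ndufv1 (-1.40 ± 0.31), Ndufb10, Ndufb2 and Ndufc1. Cox7a1, from a dim probe set, was separated higher. Of 29 genes of mitochondrial biogenesis and import 3 were separated lower, Tfb1m, Gfm1 and Timm17a, 10.3% against 4.75% of all genes. The 2 separated higher, 6.90% against 16.5% of all genes, were the coactivators Ppargc1a and Ppargc1b. Ppargc1a was dim on all R3 arrays and on 1 R5 array, and 1 of its 5 probe sets was negative. Of 66 splicing factor genes 54 were negative and 6 were separated lower, among them Srsf10 (-1.22 ± 0.40) and Prpf8 (-1.04 ± 0.35). Without replicate 1 of R5, 57 mitochondrial ribosomal protein, 24 respiratory chain, 12 biogenesis and 26 splicing genes were separated lower, against 14.7% of all genes, and without replicate 2 of R5, 2, 2, 0 and 1 were, against 8.1%. Without replicate 2 of R3, 31 of the mitochondrial ribosomal protein genes were, against 7.79%.

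Stress genes were mixed. Of 25 heat shock and chaperone genes 4 were separated higher, with Dnajb2 at 1.37 ± 0.50, and 3 lower, with Dnajb1 at -1.39 ± 0.31. These were 16.0% and 12.0% of the list, against 16.5% and 4.75% of all genes. In the list of the heme-regulated kinase and stress response, 2 of 17 were separated higher, Ddit4 (1.48 ± 0.78) and Sesn3, dim in R3, and 2 lower. The latter were Asns, which makes asparagine, at -1.10 ± 0.35, and Ppp1r15b, a phosphatase subunit of the pathway, at -1.07 ± 0.29. Each direction thus held 11.8% of this list, to be read beside the same shares of all genes.

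By size, differences were ranked among separated genes whose signals lay above the array median on all R3 and R5 arrays, a rule added after the data were seen, since values of dim probe sets have no order. It held for 730 of the 3006 genes separated higher and 532 of the 865 separated lower. On the lower side the first was Pdia2, a disulfide isomerase, with 12.18, 12.06 and 12.52 in R3, then 11.06 in R4, and 9.45 and 9.13 in R5 (-2.96 ± 0.55, limma adjusted p = 0.0957). Mrap, an accessory protein of melanocortin receptors, differed by -2.79 ± 0.76, Acp5, an acid phosphatase, by -2.69 ± 0.52, Slc39a8, a zinc and manganese importer, by -2.48 ± 0.42 and Slc29a1, a nucleoside transporter, by -2.27 ± 0.36. Replication and S phase genes were among the first 15: Ccne2, a cyclin of the entry into S phase, differed by -2.45 ± 0.50 and Orc5, of the origin recognition complex, by -2.28 ± 0.32, beside Cdc6 and Tyms. Zfp367, Dnaaf2, Svip, Abcg4, Pklr and Mrpl18 completed the 15, between -2.61 and -2.16.

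Some genes with larger fitted differences were dim in R5. Tac2, a neuropeptide gene, had 10.26, 9.51 and 10.21 in R3, then 8.89 in R4, and 5.09 and 6.01 in R5, at least 8.96-fold lower (limma adjusted p = 0.0853). It had 2.02 and 2.64 in R1 and 6.19, 7.63 and 9.46 in R2, so the R3 arrays had its highest signals. Pask, a metabolic kinase, was dim in R5 too and at least 3.64-fold lower, and was called when 13100 brighter genes were tested alone (limma adjusted p = 0.0467, and between 0.0094 and 0.306 over the settings run). Ranked by fitted difference with brightness required in R3 alone, 12 of the first 15 lower genes were dim on both R5 arrays, and no order is given for them.

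On the higher side the first 15 genes above the array median on all arrays included many genes of white blood cells. Mmp8, a protease of neutrophils, had 6.93, 8.97 and 8.01 in R3, then 8.58 in R4, and 11.60 and 11.49 in R5 (3.58 ± 0.92, limma adjusted p = 0.172). Ltf, Ngp, Cd177, a neutrophil surface protein (2.65 ± 1.18), Fpr2, a receptor for formylated peptides (2.71 ± 0.90), Ifitm6, Stfa2l1, Stfa3 and Clec4e were others. Il7r, Gimap4, a GTPase of lymphocytes (2.31 ± 0.57), and Satb1, a chromatin organizer of thymocytes (2.48 ± 0.73), were there as well. Sox4, a transcription factor of progenitors, differed by 2.83 ± 0.58, with all 8 of its probe sets positive. Ctla2a and Thbs1, the matrix protein thrombospondin, completed the 15.

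By fitted difference with brightness required in R5 alone, 11 of the first 15 higher genes were dim on all R3 arrays, and no order is given for them. Among them Cd27, a receptor of lymphocytes and progenitors, had 3.97, 1.98 and 2.32 in R3, then 4.09 in R4, and 8.52 and 6.93 in R5, at least 2.69-fold higher (limma adjusted p = 0.0853). Ltb, a lymphocyte cytokine, was at least 6.28-fold higher and Gimap6, a GTPase of lymphocytes, at least 5.58-fold.

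Of the lists of markers of other cells of the fetal liver, those of granulocytes, lymphocytes and progenitors had the highest shares separated higher, 61.5%, 61.5% and 53.3%, and those of macrophages and hepatocytes, 14.3% each, were below the share of all genes. With centring 6, 6 and 3 members of the first 3 lists were separated higher, against 6.53% of all genes. Of 13 granulocyte markers 8 were separated higher, against 16.5% of all genes, and 1 lower, with a median of 1.48, and the summed signal of the list was 78820, 110592 and 215625 in R3, then 135386 in R4, and 263212 and 284473 in R5. The secondary granule gene Ltf, lactoferrin, had 9.81, 12.27 and 11.63 in R3 and 13.57 and 14.29 in R5 (2.69 ± 1.04), and Ngp, Lcn2 and Camp were separated higher too. Genes of the primary granules, which form earlier in granulocyte development, did not follow: Elane was separated lower (-1.81 ± 0.84), and Mpo, Prtn3 and Ctsg differed by -0.23 ± 0.73, -0.65 ± 0.85 and -0.82 ± 1.05. None of the 13 markers was at 0 or below the array median on all R3 and R5 arrays. Leaving out 1 array of R3 or R5 at a time left 6 to 9 separated higher, against 18.8% to 29.3% of all genes.

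Of 13 lymphocyte markers all 13 had a positive difference and 8 were separated higher, with a median of 1.44. Their summed signal was 1538, 1986 and 2760 in R3, then 3824 in R4, and 8374 and 7110 in R5. Ptprc, the antigen CD45 of all white blood cells, had 9.18, 9.82 and 10.54 in R3, then 10.99 in R4, and 12.16 and 11.58 in R5 (2.02 ± 0.69), and the interleukin-7 receptor gene Il7r differed by 2.32 ± 0.85. The T cell genes Cd3e and Cd3g differed by 0.73 and 1.08 and overlapped. Cd3e, Cd2 and Cd7, the last of them among the separated markers, lay below the array median on all R3 and R5 arrays. Leaving out 1 array at a time left 7 to 12 separated higher, against 18.8% to 29.3% of all genes. Of 15 progenitor markers 8 were separated higher, and 5 were without replicate 1 of R5, against 24.9% of all genes. Their summed signal was 23929 to 30658 in R3 and 37632 and 49990 in R5. That sum rests most on Lmo2, the brightest member, which is also in the erythroid factor list and was not separated. Lmo2 had log2 signals of 14.21, 14.76 and 14.19 in R3 and 14.24 and 15.42 in R5. Kit, the progenitor receptor, differed by 0.54 ± 0.43, with 9.15, 8.98 and 9.55 in R3 and 10.58 and 8.96 in R5.

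**Figure D4:**
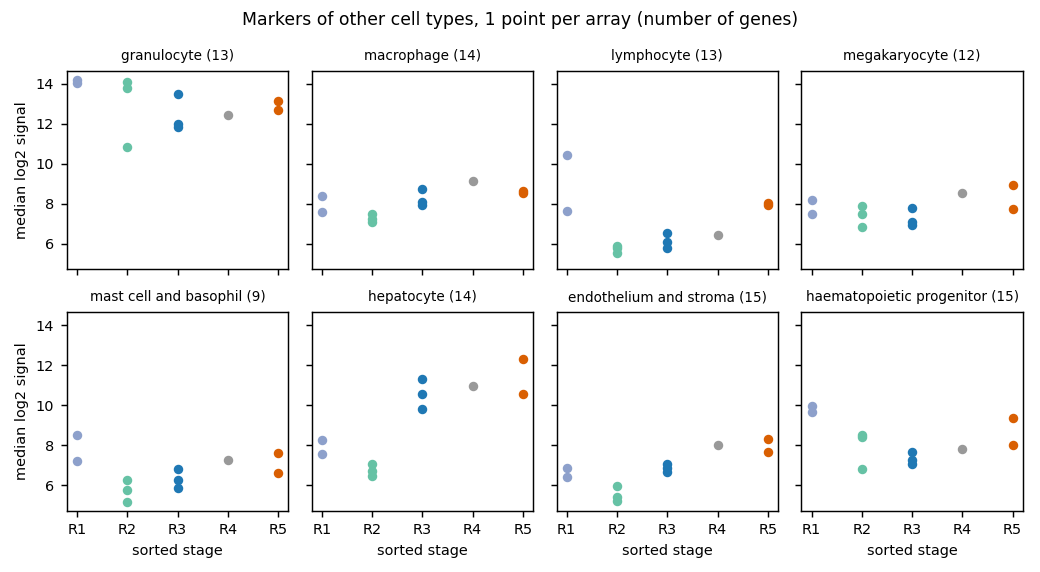
Median log2 signal (vertical axis) of the markers of 8 other cell types in the 5 sorted stages, 1 point per array, with the number of genes in brackets. The lymphocyte median is 7.94 and 8.05 on the R5 arrays against 5.78 to 6.56 on the R3 arrays.

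Of 14 macrophage markers 2 were separated higher, Lyz2 (2.08 ± 0.81), which granulocytes also express, and Fcgr1. The summed signal of the list was 9794 to 12647 in R3 and 32148 and 30719 in R5. That sum rests most on Lyz2, the brightest member, with log2 signals of 11.59, 12.70 and 12.82 in R3 and 14.41 and 14.49 in R5. C1qa and Marco had negative differences, -0.18 ± 0.74 and -0.11 ± 0.93. Adgre1, a gene of the macrophage surface, differed by 0.55 ± 0.37. Of 12 megakaryocyte markers 4 were separated higher and 1, Gp9, lower, of 9 mast cell markers 4 higher and of 15 endothelial and stromal markers 6 higher. The share of all genes separated higher was 16.5%. With centring 2, 0 and 1 of these were separated higher, with 1 macrophage marker and 0 hepatocyte markers, against 6.53% of all genes. Their summed signals were 2794 to 5505, 951 to 1706 and 1756 to 3057 in R3, and 6343 to 9554, 1798 to 7637 and 3221 to 6868 in R5. For 14 hepatocyte markers, all positive, 2 were separated, and the list was highest on replicate 2 in each stage: 77618, 123070 and 73743 in R3 and 91672 and 262017 in R5. Without replicate 1 of R5 all 14 hepatocyte markers were separated higher, against 24.9% of all genes, and without replicate 2, 1 was, against 29.3%. For the mast cell, endothelial and megakaryocyte lists replicate 1 of R5 was the higher, and without it 1, 3 and 3 were separated higher, against 24.9% of all genes. Without replicate 2 of R5, 6, 10 and 10 were, and 5 macrophage markers were, against 29.3% of all genes. Of the 6 measured genes that define erythroid cells 0 were separated. Among them Hba-a1 rests on a probe set near or below the array medians, with 4.16 to 7.44 in R3 and 7.12 and 4.57 in R5. Which cells gave the signals of the marker lists, and their part in the differences above, was not tested.

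The single R4 array was set beside the means of both stages. Of the 35 separated replication genes all 35 had an R4 signal between the R3 and R5 means, against 70.1% of the 3871 separated genes and 39.9% of all genes. All 13 separated ubiquitin genes and all 8 separated lymphocyte markers lay between too, and 5 of 9 separated granulocyte markers did. With 1 array, R4 was not tested.

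The number and the direction of the calls depended on how arrays were brought to a common scale and on 1 array. Quantile normalization gave 61 called probe sets, 60 of them lower (0.133%) and 1 higher (0.00222%). Centring each array on its median gave 554, of which 547 were lower (1.21%) and 7 higher (0.0155%), or 0.0165% of genes higher. Adding 50 to each signal gave 250, of which 85 were lower (0.189%) and 165 higher (0.366%), or 0.396% of genes higher. Without replicate 1 of R5 the count was 496, 413 lower (0.917%) and 83 higher (0.184%), with replicate 2 alone assumed to vary as arrays of the other stages do, and without replicate 2 it was 0. The background moved in the same way: with centring 6.53% of genes were separated higher and 14.9% lower, with quantile normalization 9.78% and 7.15%, and with the offset of 50, 7.38% and 3.02%. The median difference of all genes was 0.04 with quantile normalization and -0.21 with centring.

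**Figure D5:**
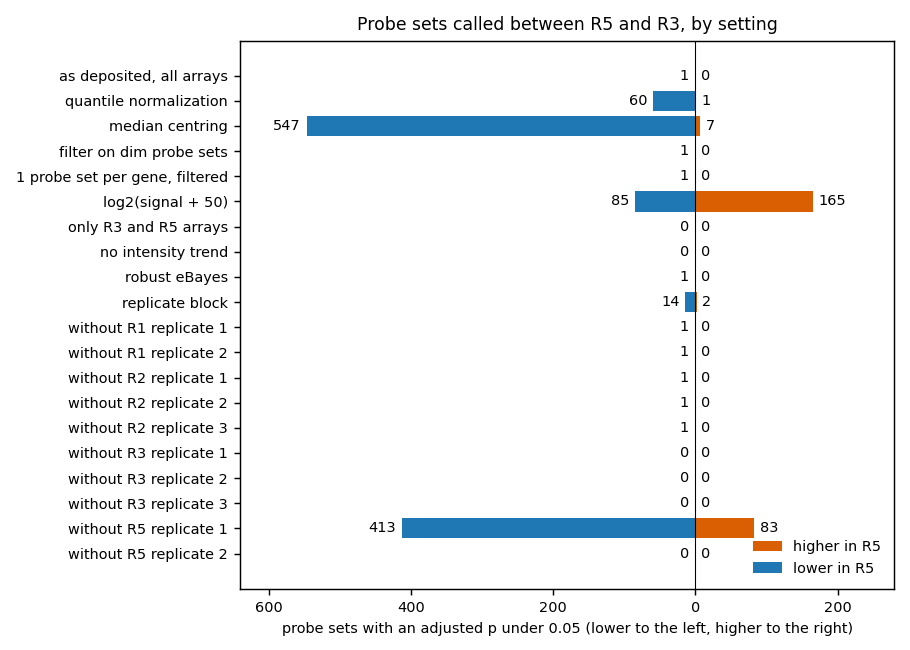
Number of probe sets called between R5 and R3 (horizontal axis, adjusted p under 0.05), higher in R5 to the right and lower to the left, for the signals as deposited and for each alternative. The counts are 1 as deposited and 554 with median centring, and leaving out replicate 1 or replicate 2 of R5 gives 496 or 0.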

How the data were processed

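The labels describe 11 arrays, 1 per sorted fraction and replicate. The deposited values were 1 linear intensity for each of 45101 probe sets, 64 of them controls. MAS5 and limma appear, without versions, in the submitters' processing notes. With 2% of values trimmed off the top and the bottom, the mean deposited intensity was 500 on every array, which is how MAS5 scales and which presumes like totals. The dye in the labels, Cy5, is not one used with arrays of these probe set identifiers, so the labelling step is not settled. The number of arrays limits the precision. No detection calls were used, and the authors' second table of ratios was not used.

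Intensities were taken to log2 with no offset. All 11 arrays entered 1 limma fit (lmFit, eBayes with an intensity trend; limma 3.58.1, R 4.3.3) with a mean per fraction, 6 residual and 6.39 prior degrees of freedom. R5 minus R3 was tested with Benjamini-Hochberg adjustment over 45037 probe sets, at an adjusted p under 0.05. Errors are the fit's SE. Genes came from GEO's platform annotation: 34945 probe sets had 1 gene, 932 several and 9160 none. A gene was represented by its brightest 1-gene probe set over all arrays, and 18032 of 18193 genes matched a RefSeq identifier. A probe set was called dim in a stage where no array of it reached the array's median, and a bound on a fold sets those arrays at their medians. The members, the 39 gene lists and the tests were chosen with earlier results of these data known. The rule for named genes took called, non-overlapping genes, and as it found none beyond those reported in every case (among them Tfrc, Hipk2, Gata1, Klf1 and Mki67), the same rule was used with separation in place of the call, after the data were seen. The fit was tested on simulated data with known changes. Alternatives were quantile normalization, median centring, 2 filters, an offset of 50, other variance models, R3 and R5 arrays alone, a replicate block and leaving out each array.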

Additional observations from a re-analysis of the deposited data

How the results depend on the processing

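Of 176 named genes, 172 kept their direction and their side of the threshold in the fits with the 2 filters, and all 176 did with R3 and R5 arrays alone, no intensity trend or robust eBayes. The 4 others fell under the filters. These settings leave the difference of a gene unchanged and alter only its error or the genes tested. Its direction could not differ, so these counts do not test it. The counts of called probe sets and genes were 61 and 18 with quantile normalization, 554 and 286 with median centring, and 250 and 127 with log2(signal + 50). With R3 and R5 arrays alone, and with no intensity trend, 0 probe sets were called. With 1 probe set per gene 1 gene was called, Pask, which is not counted among the 176. All 18 genes called with quantile normalization were among the 286 called with centring, and 7 of them were among the 127 called with the offset. Leaving out each array in turn gave 0 to 496 probe sets and 0 to 279 genes, 22 to 40 replication genes separated lower and 10 to 18 ubiquitin genes separated higher, with 3 of the latter under centring. The cause was not tested.

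Differences near 0 changed sign. Tfrc was -0.14 with quantile normalization and -0.35 with centring, and -0.32 to 0.70 with 1 array left out. With centring Lmnb1 was -0.31, Mki67 -0.035 and Myc -0.29. With 1 array left out, Klf1 lay between -0.56 and 0.20, Lmnb1 between -0.085 and 0.41, Myc between -0.76 and 1.26 (-0.08 without replicate 2 of R3) and Kit between -0.26 and 1.35.

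With the replicate number as a block, 16 probe sets (14 lower) and 11 genes (9 lower) were called, Tmem14c and Pask among them. The deviations of same-numbered R3 and R5 arrays correlated at 0.12 for number 1 and 0.19 for number 2. Per the labels, a set of replicates was extracted on 1 date. If a set is a number, the block stands for that date, and if a set is a stage, date and stage cannot be told apart. With 2 shared numbers the pairing is not shown.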
